A study of Mus musculus with 6 samples.

Results

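The 3 enzymes of melanin synthesis, tyrosinase (Tyr), tyrosinase-related protein 1 (Tyrp1) and dopachrome tautomerase (Dct), were followed in 6 mouse messenger RNA libraries. They were picked by symbol, and all 3 have 1 row each among the 18908 genes of the deposited table. They were proposed because earlier results on these libraries showed their transcripts to be abundant and to differ between the groups. Their levels and differences are therefore given as a description, without a test. The libraries are 3 from cells given a control shRNA, labelled wild type (WT), and 3 from cells given an shRNA against VprBP1, labelled as its knockdown. A short hairpin RNA (shRNA) is used to lower a chosen transcript. VprBP is today called Dcaf1 and brings substrates to a ubiquitin ligase. The labels give every library as bone marrow-derived macrophages (BMDM). The sources used here give neither strain, age nor hairpin sequence. They do not tell whether a group's libraries are separate animals or cultures, so all errors and p-values measure how these 6 libraries vary, possibly for technical reasons. Values of single libraries are always given in the order 1, 2 and 3.

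Melanin is made in the melanosome, an organelle of pigment cells. Tyr oxidises tyrosine to dopaquinone and is the rate-limiting enzyme of the pathway. Dct rearranges the intermediate dopachrome, and Tyrp1, its close relative, acts on the product in the mouse and also stabilises Tyr. The 3 enzymes are metal-binding membrane glycoproteins of a single gene family. Mitf, the main transcription factor of pigment cells, is known to act on them through a promoter element called the M-box.

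The labels were checked first, and the groups are called by label throughout. Levels are CPM, the counts after scaling all libraries to 1 size with edgeR's TMM factors. Dcaf1 was measured at 42.2, 43.5 and 40.7 CPM under the control label and 36.0, 34.6 and 36.8 CPM under the VprBP label. The VprBP-labelled mean was 84.9% of the other (log2 difference -0.24, SE 0.07, edgeR adjusted p = 0.00625, lower in 3 of 3 libraries). Among the 14641 tested genes, 81.0% differed by more than Dcaf1. At an adjusted p below 0.05, 75.0% were called, 37.0% as lower, and for 77.2% the groups did not overlap. Dcaf1 overlaps Manf and Rbm15b on the other strand, whose reads may not be told apart from its own. Of 15 macrophage markers, 9 have no row in the table used here, whose lowest total for a gene is 10 counts, Csf1r, Adgre1, Itgam, Spi1 and Ptprc among them. The other 6 summed to 37.3 to 40.6 CPM (control label) and 20.2 to 21.1 CPM (VprBP label), at most 0.329% of the summed level of the 3 enzymes in any library. They did not move together: Cd68 was at 31.6 ± 1.20 and 1.01 ± 0.270 CPM, while Mertk (5.35 ± 0.739 and 13.3 ± 0.696), Lyz2 (1.05 ± 0.212 and 2.51 ± 0.304) and Laptm5 (0.241 ± 0.0563 and 3.03 ± 0.566 CPM) were higher under the VprBP label. The 7 other pigment cell markers (Pmel, Mlana, Mitf, Sox10, Gpr143, Slc45a2 and Oca2) summed to 8467 to 8767 CPM and to 3494 to 3673 CPM, with Mitf and Sox10 higher and most of the others lower under the VprBP label. The macrophage label thus went against the markers in all 6 libraries. Markers of Schwann cells, which share the neural crest origin of pigment cells, moved with the labels, their 8 genes summing to 60.3 to 65.0 CPM (control label) and 1025 to 1102 CPM (VprBP label), most of it Mbp (20.6 ± 0.753 and 694 ± 35.6 CPM). Of these 8, 7 had a higher mean under the VprBP label and Egr2 a lower one. The 5 fibroblast markers of 7 with a row summed to 27.2 to 29.0 and 328 to 377 CPM, carried by Col1a1 (14.9 ± 1.07 and 302 ± 28.1 CPM) and Pdgfra (10.2 ± 0.917 and 44.9 ± 2.98 CPM). Among the other 3, Dcn was lower (2.70 ± 0.297 and 1.26 ± 0.365 CPM), and Col3a1 and Lum had no counts under the control label and little under the other. Also moving with the labels was the share of counts on the mitochondrial genome (8.65% to 9.48% and 4.89% to 5.56%). Of 8 markers of the retinal pigment epithelium, another tissue that makes melanin, 4 have a row, summing to 15.3 to 17 and 14.8 to 17.7 CPM, and Rpe65, the enzyme that defines it, has none. The part of these differences in the values below was not tested, and fewer cells of a type and less RNA per cell cannot be told apart in bulk samples.

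The promoters come first, because an element shared by the 3 genes is the best known link between them. Sequences are from RefSeq on GRCm38.p6, the genome build of the deposited table, read on the strand of the gene, 5′ to 3′. A 9-base M-box match is in capitals with 10 bases on each side. The Tyr window is chr7:87493516-87493544 on the minus strand, the Tyrp1 window chr4:80834156-80834184 on the plus strand, and the Dct window chr14:118052379-118052407 on the minus strand.
Tyr: aaaaagttagTCATGTGCTttgcagaaga
Tyrp1: ggggagggagTCATGTGCTgcctagtagt
Dct: gcacttagggTCATGTGCTaacaaagagg
The same 9 bases stood in all 3 genes, from -22 to -14 before the RefSeq transcript start in Tyr, from -47 to -39 in Tyrp1 and from -151 to -143 in Dct. The search covered both strands of a window from 250 bases before each start to 50 after it. Of 32851 such windows over all genes, 134 (0.408%) held TCATGTGCT. The shorter TCATGTG was in 3.77% of windows, and the E-box CATGTG inside both in 14.2%. Dct held a second TCATGTG, on the other strand, from -232 to -226. The E-box CACGTG was in 7.15% of all windows and in none of the 3. These matches are letters in a window, and nothing in the data measured binding to them.

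Around the shared element the upstream sequences differed in base content, and they were not aligned with each other. The 250 bases before the start are shown for Tyr (chr7:87493513-87493762, minus strand) and Dct (chr14:118052247-118052496, minus strand), with the M-box match in capitals. For Tyrp1 only the window above is shown, since GENCODE M21 places the start of a coding transcript at 80834123, inside those bases. The Tyrp1 match lies past that start, within the span of that transcript, though before the RefSeq start.
Tyr: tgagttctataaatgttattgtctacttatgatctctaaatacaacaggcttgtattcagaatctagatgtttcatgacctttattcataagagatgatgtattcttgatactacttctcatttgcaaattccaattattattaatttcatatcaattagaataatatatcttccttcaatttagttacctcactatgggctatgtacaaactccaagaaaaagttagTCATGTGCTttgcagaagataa
Dct: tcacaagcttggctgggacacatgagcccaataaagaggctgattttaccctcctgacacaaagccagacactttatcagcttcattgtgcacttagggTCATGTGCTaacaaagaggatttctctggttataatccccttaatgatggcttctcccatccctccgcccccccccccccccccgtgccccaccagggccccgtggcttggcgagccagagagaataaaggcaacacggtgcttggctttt
G and C made up 28.8% of these bases in Tyr, 39.2% in Tyrp1 and 54.0% in Dct, where the longest run of a single base was 17. The letters ACAAAG or ACAATG, cores of SOX factor motifs, had 3 matches in the Dct window, 1 in Tyrp1 and none in Tyr, and 18.7% and 12.6% of all windows held them.

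Tyr, the rate-limiting enzyme, was the member with the largest difference between the labels. Tyr (ENSMUSG00000004651.6; GRCm38 chromosome 7, 87424771 to 87493512, minus strand, 5 exons) was measured at 129.8, 116 and 129 CPM under the control label. Under the VprBP label it stood at 450.2, 502 and 469 CPM. All VprBP-labelled libraries were above all control-labelled ones, by far more than either group's spread. Mean levels (± SD, n = 3 each) were 125 ± 7.43 and 474 ± 26.2 CPM, a log2 difference of 1.92 (SE 0.05), or 3.79-fold with a 95% interval of 3.51 to 4.10. Of the 14641 genes tested across the table, 13.2% differed by more than Tyr in either direction.

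Dct, the tautomerase, was also higher in the VprBP-labelled libraries. Dct (ENSMUSG00000022129.4; chromosome 14, 118012790 to 118052244, minus strand, 8 exons) stood at 5904, 5782 and 5736 CPM under the control label and 8481, 8765 and 8965 CPM under the VprBP label. The lowest VprBP-labelled library lay well above the highest control-labelled one. The means were 5807 ± 86.5 and 8737 ± 243 CPM, a log2 difference of 0.59 (SE 0.03), or 1.5-fold with an interval of 1.44 to 1.58. Differences of this size were common in these data, and 55.8% of tested genes differed by more. A noncoding gene on the opposite strand, 4930435M08Rik, overlaps Dct. The counting is not stated to use strand, so reads of the pair cannot be told apart. It held 20 counts over the 3 libraries with the control label and 110 over the other 3, against 312790 and 491506 for Dct.

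Tyrp1 barely differed. Tyrp1 (ENSMUSG00000005994.14; chromosome 4, 80834123 to 80851719, plus strand, 8 exons) stood at 7005, 6839 and 6491 CPM under the control label and 7062, 7375 and 7062 CPM under the VprBP label. The groups did not overlap, but control-labelled library 1 came close to VprBP-labelled libraries 1 and 3, a gap smaller than the SD of either group. The means were 6778 ± 262 and 7166 ± 181 CPM, a log2 difference of 0.08 (SE 0.03), or 1.06-fold with an interval of 1.005 to 1.11. Of all tested genes, 93.8% differed by more. Without control-labelled library 3, the lowest, the log2 difference was 0.04, and with scaling by library size only it was 0.20. The groups failed to overlap for each of the 3 enzymes, as they did for 77.2% of all tested genes.

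**Figure D1:**
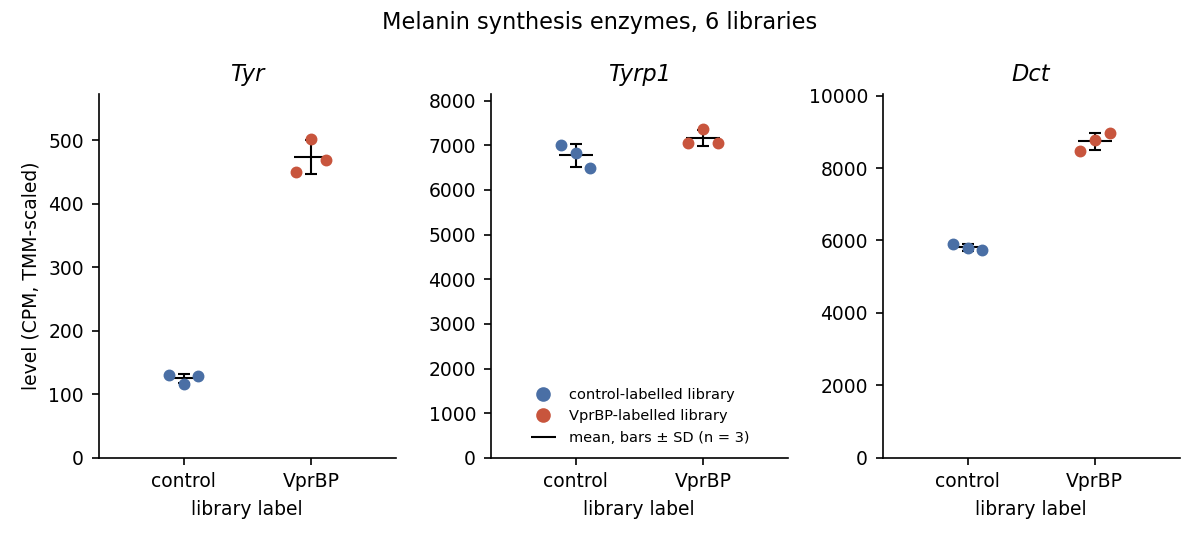
Level of each enzyme in the 6 libraries (y axis, CPM after TMM scaling, from 0; a panel per gene), by library label. Points are libraries, black marks the group mean with SD bars (n = 3). Tyr lies at 116 to 129.8 CPM against 450.2 to 502 CPM, Dct at 5736 to 5904 against 8481 to 8965 CPM, and the Tyrp1 groups nearly touch, at 7005 and 7062 CPM.

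Replicates lay close together for all 3 genes. The coefficient of variation within a group under the control and the VprBP label was 5.95% and 5.54% for Tyr, 3.87% and 2.52% for Tyrp1, and 1.49% and 2.78% for Dct. Counting error alone, which leaves out variation from amplification, would give 2.11% and 1.06% for Tyr, and 0.247% to 0.310% for Tyrp1 and Dct, well under their spread. The biological coefficient of variation that edgeR fitted was 4.66%, 3.95% and 3.73% for Tyr, Tyrp1 and Dct, beside a median of 4.28% over the 2008 tested genes whose mean reached 100 CPM.

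Ratios between the enzymes were taken within each library, where they do not depend on how libraries are scaled. They are ratios of counts, so gene length sets their height but not their change. Dct had 0.843, 0.845 and 0.884 counts per Tyrp1 count under the control label, against 1.20, 1.19 and 1.27 under the VprBP label. Dct was below Tyrp1 in all control-labelled libraries and above it in all VprBP-labelled ones. The mean ratios were 0.857 ± 0.0229 and 1.22 ± 0.0435 (SD, n = 3 each), a 1.42-fold higher ratio under the VprBP label.

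Tyr counts came to 1.85%, 1.70% and 1.98% of Tyrp1 counts under the control label and to 6.38%, 6.81% and 6.64% under the VprBP label, 3.59-fold higher. Dct counts were 45.5, 49.7 and 44.6 times the Tyr counts under the control label and 18.8, 17.5 and 19.1 times under the VprBP label. The third ratio follows from the other 2. Among the counts of the 3, Tyr made up 0.983% ± 0.0643 (control label) and 2.89% ± 0.109 (VprBP label), Tyrp1 53.3% ± 0.679 and 43.8% ± 0.826, and Dct 45.7% ± 0.632 and 53.3% ± 0.882.

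**Figure D2:**
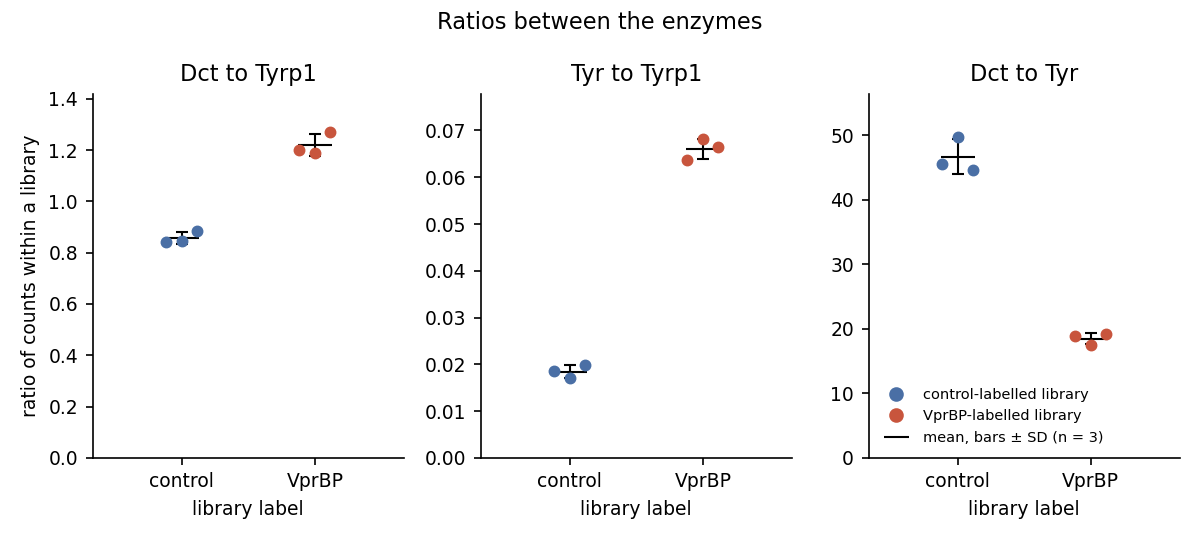
Ratio of the counts of 2 enzymes within each library (y axis, from 0; a panel per pair), by library label, with group mean and SD bars (n = 3). Dct to Tyrp1 goes from 0.857 to 1.22, Tyr to Tyrp1 is 3.59-fold higher, and Dct to Tyr is lower in all 3 VprBP-labelled libraries, at 17.5 to 19.1 against 44.6 to 49.7.

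Together the 3 enzymes held 1.25%, 1.22% and 1.19% of all counts under the control label and 1.66%, 1.73% and 1.72% under the VprBP label. Their summed level was 12710.4 ± 342 and 16377 ± 340.5 CPM. Of the 3 enzymes, Dct differed most in CPM and so had the largest part in the higher sum.

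Levels of different genes can be set side by side only per length. Per kilobase of the union of annotated exons (7108 bases in Tyr, 2828 in Tyrp1 and 5895 in Dct), Tyrp1 stood highest, at 2397 ± 92.7 CPM per kilobase (control label) and 2534 ± 63.9 (VprBP label). Dct followed at 985 ± 14.7 and 1482 ± 41.2, and Tyr at 17.6 ± 1.04 and 66.7 ± 3.69 CPM per kilobase. On this scale Tyrp1 ranked 19 and 8, Dct 31 and 16, and Tyr 2515 and 579 among the 18501 genes with a length, under the control and the VprBP label. Tyr was far below the other 2 enzymes whichever length was used.

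The order of Dct and Tyrp1 was not fixed by the data, since it depended on the length used. The Dct exon union, for example, includes introns that 2 noncoding transcripts retain. With the longest coding transcript (2202 bases in Dct, 2720 in Tyrp1), Dct stood at 2637 ± 39.3 and Tyrp1 at 2492 ± 96.3 CPM per kilobase under the control label, and at 3968 ± 110.4 and 2635 ± 66.4 in the VprBP-labelled ones. Dct was above Tyrp1 in each control-labelled library on this scale, at 2681, 2626 and 2605 against 2575, 2514 and 2387 CPM per kilobase. Coding length is the union of coding bases over a gene's annotated transcripts (1551 in Dct, 1730 in Tyrp1). It can be longer than that of any 1 transcript. With it, Dct was at 3744 ± 55.8 and Tyrp1 at 3918 ± 151 under the control label. In the VprBP-labelled libraries they stood at 5633 ± 157 and 4142 ± 104. Lengths of the coding transcript and of the coding part were added after the values were seen.

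**Figure D3:**
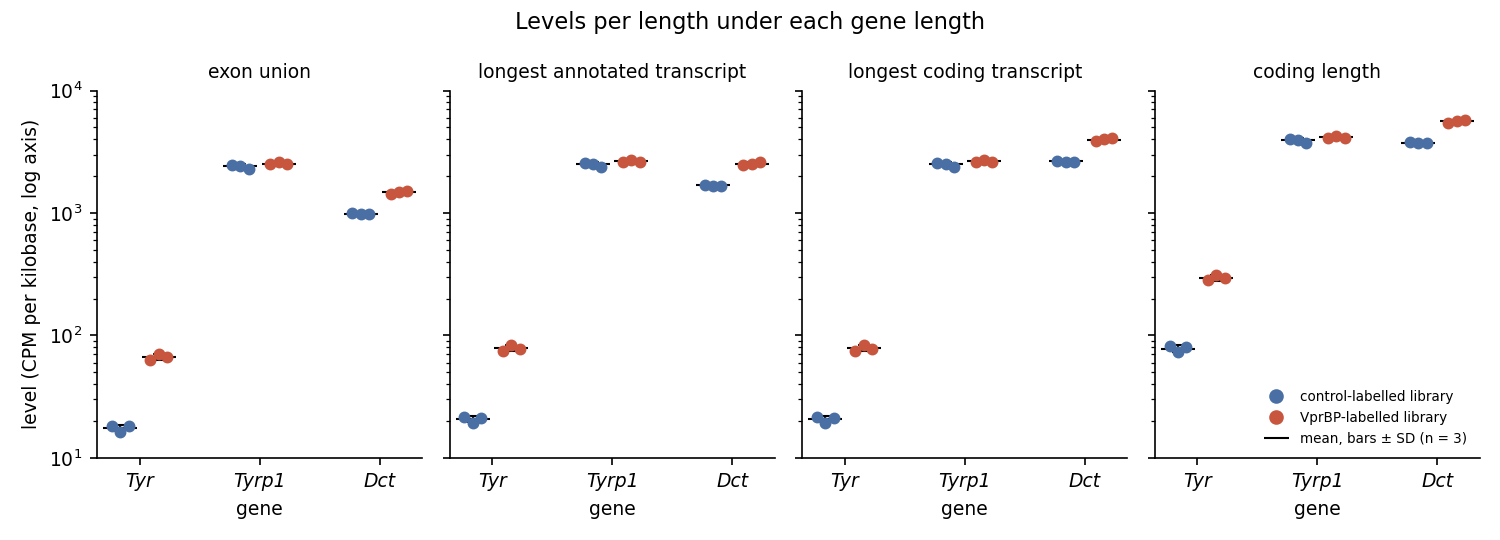
Level per kilobase (y axis, log scale, CPM per kilobase) of the 3 enzymes under 4 definitions of gene length (panels), for control-labelled (blue) and VprBP-labelled (red) libraries, with mean and SD bars (n = 3). Tyr is lowest in every panel, while Dct lies below Tyrp1 with the exon union (985 against 2397 in the control-labelled libraries) and above it with the longest coding transcript (2637 against 2492).

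Genes around the enzymes were counted in 5 lists. The fit across all 14641 genes called 75.0% of them at an adjusted p below 0.05 (edgeR quasi-likelihood test, Benjamini-Hochberg), 37.9% as higher and 37.0% as lower in the VprBP-labelled libraries, with a median log2 difference of -0.01. The counts in each list are to be read against these shares.

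Regulators of pigment genes included some that were much higher in the VprBP-labelled libraries. Of 24 listed, 17 were tested: 7 were higher, 4 lower and 6 without a call, at a median log2 difference of 0.14. Mitf stood at 28.2, 28 and 26.3 CPM under the control label and 90.3, 98.3 and 95.3 CPM under the VprBP label. Sox10, which acts on Mitf and on Dct, stood at 132, 145 and 153 CPM and at 539.6, 475 and 492 CPM. Mc1r, the receptor for melanocyte-stimulating hormone, stood at 7.42, 8.05 and 8.95 CPM and at 39.0, 45.3 and 41.1 CPM. No library of one label reached the range of the other for these 3 genes. The same held for 77.2% of all tested genes. Mitf, Sox10 and Mc1r rose 3.44-fold, 3.51-fold and 5.15-fold, beside differences of 3.79-fold for Tyr, 1.5-fold for Dct and 1.06-fold for Tyrp1. Pax3, another activator of Mitf, rose from 50.9 ± 3.18 to 90.6 ± 3.50 CPM (edgeR adjusted p = 1.11e-09) and Zeb2, a repressor of E-cadherin, from 53.8 ± 4.75 to 238 ± 7.09 CPM. Pou3f2 and Lef1 were scarcer, and their fold changes less certain. Pou3f2 rose from 1.94 ± 0.854 to 7.84 ± 0.846 CPM, 4.12-fold with an interval of 2.75 to 6.18. Lef1 rose from 0.227 ± 0.0721 to 1.13 ± 0.303 CPM, 4.95-fold with an interval of 2.22 to 11.0. It had only 12 counts over the 3 control-labelled libraries. Tfe3, a relative of Mitf, fell from 80.2 ± 2.03 to 68.8 ± 2.77 CPM (log2 difference -0.22), a call lost with scaling by library size only (-0.10, edgeR adjusted p = 0.111). The other 3 lower regulators were scarcer but differed more. Irf4, which works with Mitf on the Tyr gene, fell from 3.17 ± 0.533 to 0.499 ± 0.0707 CPM (log2 difference -2.66), Pomc, the precursor of melanocyte-stimulating hormone, from 3.65 ± 0.829 to 0.963 ± 0.768 CPM (-1.91), and Sox9 from 9.04 ± 0.398 to 5.83 ± 0.326 CPM (-0.63). Creb1 (56.3 ± 1.85 and 51.0 ± 1.96 CPM) and Tfap2a (41.0 ± 4.16 and 36.3 ± 0.575 CPM) were not called. Without control-labelled library 3 both were called lower (edgeR adjusted p = 0.0381 and 0.00538), as they were with upper quartile scaling and with another filter on low counts. Tfeb, also not called (14.5 ± 1.52 and 17.4 ± 2.10 CPM), was called higher without that library (edgeR adjusted p = 0.0379). So it was without VprBP-labelled library 2, with DESeq2 size factors and with scaling by library size only. Scaling by library size only called Usf1 higher too. Ednrb, Edn3, Tfec, Asip, Foxd3 and Otx2 have no row in the table used here.

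Genes of the melanosome matrix and its transport were mostly lower in the VprBP-labelled libraries, unlike Tyr and Dct. All 13 listed were tested: 8 were lower, 3 higher and 2 without a call, at a median log2 difference of -0.83. Pmel, which forms the fibrils on which melanin is laid down, stood at 6806, 7031 and 7076 CPM under the control label and 2578, 2497 and 2441 CPM under the VprBP label. Mlana, a small melanosome protein that binds Pmel, stood at 628, 634 and 670.2 CPM and at 233.5, 239 and 248.7 CPM. Both fell in every VprBP-labelled library, 2.78-fold and 2.68-fold on average. Gpnmb, a glycoprotein related to Pmel, fell from 11213 ± 71.3 to 6321 ± 158 CPM and Cd63, a tetraspanin that sorts Pmel, from 2824 ± 68.3 to 1434 ± 19.4 CPM. The genes that rose were Mlph and Myo5a, which move melanosomes along actin, from 42.8 ± 1.36 to 88.3 ± 0.973 CPM and from 219 ± 12 to 245 ± 6.88 CPM, and Meltf, which encodes melanotransferrin, from 1.08 ± 0.399 to 3.01 ± 0.219 CPM. The Myo5a call was lost without control-labelled library 3 (log2 difference 0.10, edgeR adjusted p = 0.0688). Apoe fell from 1702 ± 176 to 1486 ± 133 CPM with overlapping groups, a call lost without control-labelled library 3 or VprBP-labelled library 2 or 3, with scaling by library size only and with DESeq2. Bace2, a protease that cuts Pmel, was not called (100.4 ± 3.48 and 105 ± 3.73 CPM), but was called higher with scaling by library size only.

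**Figure D4:**
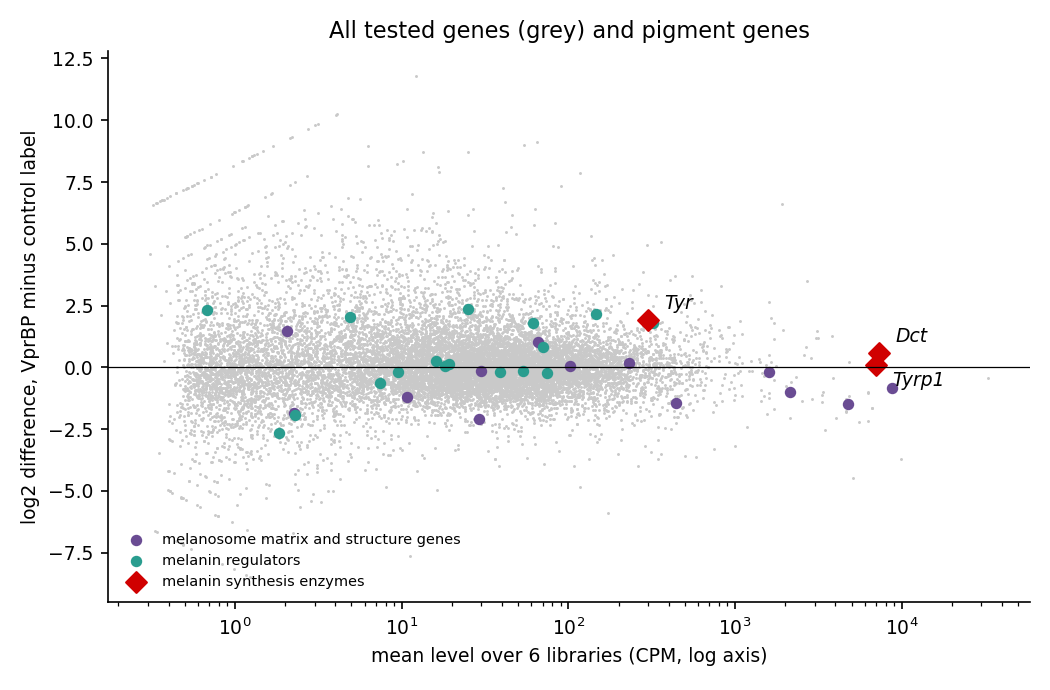
Mean level over the 6 libraries (x axis, CPM, log scale) against the log2 difference, VprBP-labelled minus control-labelled (y axis), for the 14641 tested genes in grey, the 3 enzymes as red diamonds, and the regulators (green) and melanosome matrix genes (purple). Tyrp1 and Dct lie at the far right with differences of 0.08 and 0.59, and Tyr at 1.92, while most abundant melanosome matrix genes lie below 0.

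Transporters that supply the enzymes with metal or set the melanosome's ions were nearly all lower in the VprBP-labelled libraries. All 15 listed were tested: 12 were lower, 1 higher and 2 without a call, at a median log2 difference of -0.76. Slc45a2, a melanosome transporter needed for full Tyr activity, stood at 821, 806 and 793 CPM under the control label and 219.8, 212 and 204 CPM under the VprBP label. It fell 3.81-fold, with no overlap. Slc24a5, a calcium exchanger of the melanosome, fell from 327 ± 4.94 to 123 ± 9.81 CPM (edgeR adjusted p = 6.05e-14). Copper is the metal of Tyr. Slc31a1, which takes copper into the cell, fell from 242 ± 15.0 to 116 ± 0.278 CPM, and Atp7a, which pumps it into the secretory pathway, from 115 ± 6.23 to 95.9 ± 9.57 CPM. Atox1, the chaperone that hands copper to Atp7a, was the gene that rose, from 37.9 ± 4.14 to 46.8 ± 3.28 CPM. Zinc transporters of the secretory pathway fell too, Slc39a7 from 433 ± 21.1 to 244 ± 12.5 CPM and Slc30a5 from 263 ± 9.25 to 109 ± 2.40 CPM. Mfsd12, which brings cysteine into melanosomes, fell from 103 ± 7.83 to 75.8 ± 7.96 CPM and the proton-coupled amino acid transporter Slc36a1 from 99.2 ± 4.33 to 58.7 ± 6.42 CPM.

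Genes that fold the enzymes in the endoplasmic reticulum and carry them to melanosomes were mixed. Of 31 listed, 30 were tested: 8 were higher, 15 lower and 7 without a call. The median log2 difference was -0.20 and the mean -0.11, and scaling by library size only turned the mean to 0.01. The chaperones that bind the sugars of new glycoproteins were lower, with Calr falling from 9089 ± 78.9 to 1979 ± 51.9 CPM, Canx from 2578 ± 55.1 to 1729 ± 105 CPM and their partner Pdia3 from 2167 ± 73.5 to 1045 ± 74.1 CPM. Uggt1, which returns unfolded glycoproteins to them, was not called (422 ± 21.2 and 433 ± 6.37 CPM), but was called higher with scaling by library size only. Rab38, a small GTPase that sends Tyr and Tyrp1 to melanosomes, stood at 36.1 ± 2.69 and 205 ± 3.68 CPM and rose 5.70-fold. Rab32, another small GTPase of this list, fell from 17.3 ± 0.649 to 8.27 ± 1.29 CPM, and was named here after its values were seen. Of the adaptor complex that sorts Tyr, the subunit Ap3b1 rose from 56.0 ± 3.45 to 89.2 ± 2.99 CPM and Ap3d1 fell from 231 ± 1.90 to 192 ± 7.73 CPM. Gipc1, an adaptor for the sorting of Tyrp1, was not called (90.6 ± 6.21 and 92.4 ± 9.89 CPM).

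Genes of substrate supply and thiols were split evenly. Thiols bear on the pathway because cysteine diverts dopaquinone from black to yellow pigment. Of 21 listed, 16 were tested, with 8 higher, 8 lower and none uncalled. The median log2 difference was -0.11, and 0.01 with scaling by library size only. Slc3a2, a subunit of amino acid transporters, fell from 1084 ± 22.5 to 415 ± 26.3 CPM, and the cystine transporter Slc7a11 from 239.6 ± 4.66 to 174 ± 5.92 CPM. Gclc and Gclm, the subunits of the enzyme that starts glutathione synthesis, fell from 129.9 ± 4.57 to 67.5 ± 3.27 CPM and from 139.7 ± 7.18 to 103 ± 4.47 CPM. Txnrd1, a thioredoxin reductase, rose from 476 ± 9.47 to 1147 ± 60.2 CPM, the peroxiredoxin Prdx6 from 139 ± 0.904 to 455 ± 4.45 CPM, and Mif, a cytokine that can also act as a dopachrome tautomerase, from 212 ± 11.2 to 322 ± 17 CPM. Ddt, D-dopachrome tautomerase, went the other way from Mif and fell from 30.7 ± 1.55 to 11.8 ± 1.58 CPM. It was named here after its values were seen. Slc7a5, which carries large amino acids such as tyrosine, rose from 358 ± 9.55 to 419 ± 26.5 CPM.

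**Figure D5:**
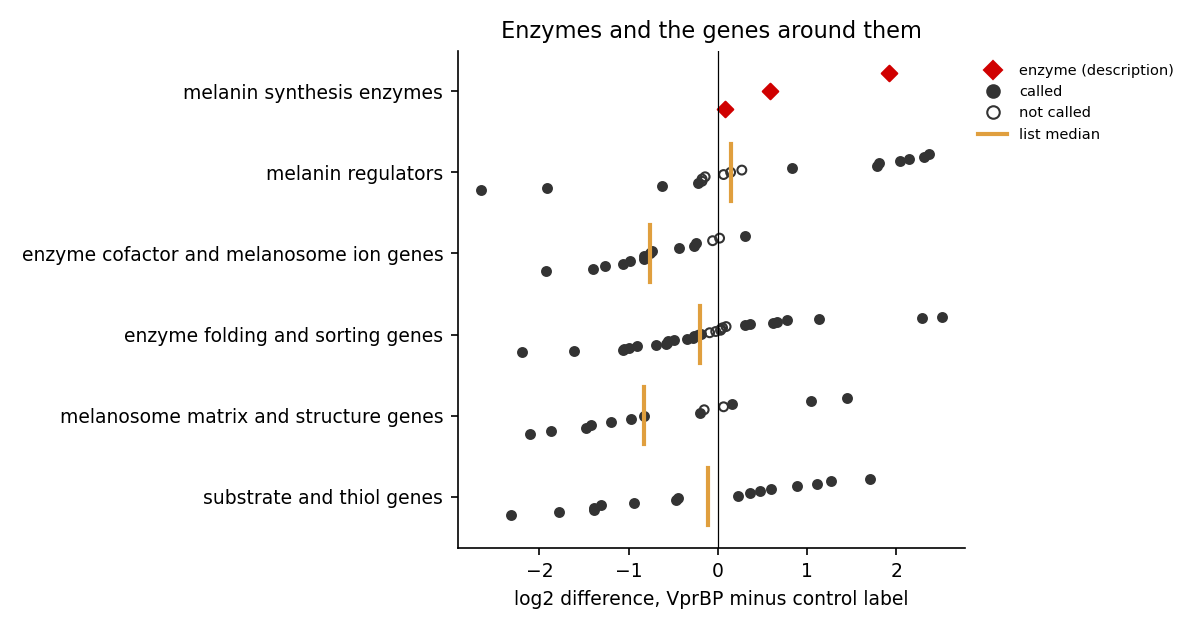
Log2 difference, VprBP-labelled minus control-labelled (x axis), of the 3 enzymes (red diamonds, given as a description) and of the tested genes of 5 lists (rows). Filled circles were called at an adjusted p below 0.05, open circles were not, and the orange line is the list median. The enzymes lie at 0.08, 0.59 and 1.92, the medians of the melanosome matrix and ion lists at -0.83 and -0.76.

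The genes with the pattern most like each enzyme over the 6 libraries were found by the Euclidean distance of log2 levels centred on each gene's mean, among 9336 genes whose mean reached 10 CPM (0.5 CPM was added before the log). Paics, an enzyme of purine synthesis, was nearest to Tyr (distance 0.113; 38.3 ± 2.54 and 140.7 ± 5.67 CPM), followed by Fam171a1 (0.121) and Cdk19 (0.137). For Dct they were Cand1, an exchange factor of cullin ligases (0.0455; 107 ± 2.94 and 159.8 ± 2.67 CPM), Prkar1a, a regulatory subunit of protein kinase A (0.0604), and Gnptab (0.0611). For Tyrp1 they were Plekhb2 (0.0459; 114 ± 3.95 and 120.3 ± 0.595 CPM), Smurf2 (0.0585) and Foxj2 (0.0590). None of the 9 is in the 5 lists. Over 6 libraries in 2 groups, such a distance is small wherever the difference between the labels is alike.

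The nearest protein-coding genes on either side of each enzyme were looked up after the members' values were seen. Of these 6 neighbours 5 were tested: 3 were higher, 1 lower and 1 without a call, beside 75.0% called, 37.9% as higher, over all tested genes. Nox4, 26.1 kb from Tyr, fell from 15.7 ± 0.838 to 7.40 ± 1.94 CPM, the opposite direction to Tyr. Grm5, on the other side of Tyr, had too few counts to be tested. Gpc6, a heparan sulfate proteoglycan 36.2 kb from Dct, rose from 4.76 ± 0.411 to 75.0 ± 3.85 CPM, while Tgds, 59.7 kb away on the other side, was not called (17.7 ± 1.08 and 18.1 ± 1.29 CPM). Lurap1l, 58.9 kb from Tyrp1, rose from 2.59 ± 0.626 to 18 ± 1.02 CPM and Ptprd, 2622 kb away, from 31.6 ± 2.72 to 65.7 ± 3.78 CPM.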

How the data were processed

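Messenger RNA was sequenced from 6 libraries (RNeasy columns and a SMARTer kit, per the labels' protocols). The deposited table gives estimated counts per gene, not scaled between libraries. Partek software and build mm10 were used, per the submitters' processing notes. The sources used here do not give the aligner, the counter or the strand setting. Total counts were 16839445 to 21838875 per library, and 62.1% to 64.5% of values were whole within 0.001. Of the gene IDs, 18501 (97.8%) matched GENCODE M21.

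Rounded counts went into edgeR 4.0.16 under R 4.3.3 (quasi-likelihood F test, TMM scaling, filterByExpr, group as the only term), with Benjamini-Hochberg adjustment over all tested genes. Intervals are 95%. CPM use the TMM-scaled library sizes. The fit was run on simulated data, where it recovered 186 of 200 changed genes among 14641, with 13 false calls. Far fewer genes changed there than the 75.0% called here, evenly up and down. How the scaling does when most genes differ was therefore not tested. Alternatives included DESeq2 1.42.0, other scalings and filters, leaving out each library, and a replicate block.

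The members, lists and tests were chosen with earlier results of these data known. Named genes were the members, Dcaf1, the 3 nearest patterns per member, and per list up to 8 genes by abundance plus any needed to give a direction.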

Additional observations from a re-analysis of the deposited data

How the results depend on the processing

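The log2 differences of Tyr, Tyrp1 and Dct kept their sign in all 14 alternatives. They moved by more than the spread between replicates with scaling by library size only, to 2.04, 0.20 and 0.71, a setting that raised the median of all genes by 0.12. Leaving out 1 library at a time gave 1.87 to 1.97 for Tyr, 0.04 to 0.10 for Tyrp1 and 0.57 to 0.62 for Dct. With a replicate block they were 1.92, 0.08 and 0.59, and 5395 genes were called higher and 5254 lower, against 5552 and 5422 without it. Deviations of same-numbered libraries correlated at -0.03, 0.01 and -0.04, so the numbers gave no pairing.

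The log2 of Dct over Tyrp1 per kilobase was -1.28 (control-labelled) and -0.77 (VprBP-labelled) with exon unions. It was -0.57 and -0.061 with the longest annotated transcript, 0.082 and 0.59 with the longest coding transcript, and -0.066 and 0.44 with coding length. For Tyr over Tyrp1 it was -7.09 and -5.25, -6.91 and -5.07 with either transcript length, and -5.65 and -3.81 with coding length. The lengths used are the cause of these shifts. A RefSeq coding length was not run.

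Of 91 tested list genes 74 were called, and 7 of these lost the call in at least 1 alternative. Another 7 gained one, and no called gene changed sign.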

Other observations

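The 9 bases TCATGTGCT shared by the 3 enzyme promoters were found in the RefSeq windows of 112 genes, of which 20 have a row in the table and 13 were tested. The 10 tested genes other than the enzymes split into 6 that were higher under the VprBP label, 2 that were lower and 2 without a call, beside 37.9% higher, 37.0% lower and 75.0% called among all tested genes. They were looked at after the enzymes' values were seen. The most abundant were Tmem140, which fell from 248 ± 13.6 to 18.8 ± 0.987 CPM, Sec31a, a coat protein of transport vesicles (105 ± 1.72 and 97.0 ± 5.64 CPM, not called), and Ppargc1a, a coactivator of mitochondrial biogenesis, which fell from 90.0 ± 9.65 to 37.1 ± 2.22 CPM. Dclk1, a microtubule-associated kinase, rose from 7.32 ± 1.69 to 75.8 ± 3.68 CPM. The other higher genes were Pdxk, Rbm43, 9330159F19Rik, Matn4 and Fbxw18. The number called was near the share over all genes, and nothing is read from it about the letters. Among list genes with a window, the shorter TCATGTG was found in 1 of 20 regulators (Mc1r) and 1 of 14 ion genes (Slc24a5). It was in 2 of 25 folding and sorting genes (Hps1 and Dab2), 1 of 9 matrix genes (Trpm1) and 1 of 16 substrate genes (Slc7a11). Over all genes with a window the share was 4.31%, and nothing is read from these matches.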
